A study of Homo sapiens with 9 samples.

Results

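DYNLRB1, TMED4, LMLN, NUDT19, ACBD5, GID8, KLHDC3, DDA1 and ABCA3 are 9 of the first 26 genes by p-value in the comparison of LYL1 knockdown with control in a human leukaemia cell line. They are 9 of 59648 genes in the deposited counts, and 9 of 9 passed the filter on low counts, which kept 14741 genes. They were chosen on their values in LYL1 knockdown against control, so that comparison describes them and does not test them. The label under which they were grouped speaks of a shared rise. The data go against it for GID8 and ABCA3, which were lower with LYL1 knockdown, and for DDA1, which was higher with LYL1 knockdown and near the control level with AE knockdown. The other 6 genes were higher than control in both knockdowns.

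The data are 9 RNA sequencing libraries of Kasumi-1, an acute myeloid leukaemia line with the t(8;21) translocation, which joins RUNX1 to RUNX1T1 and makes the AML1-ETO fusion (AE). All 9 libraries come from cells that took up an shRNA lentivirus for 48 h, were selected with puromycin at 1 µg/mL for another 48 h, and were harvested on day 4. Of these, 3 carry a control shRNA, 3 carry AE shRNAs labelled 1 to 3, and 3 carry LYL1 shRNAs labelled 538, 540 and 542. LYL1 is a basic helix-loop-helix transcription factor of blood progenitors and a partner of the fusion. All libraries come from 1 cell line. The LYL1 libraries carry differently numbered shRNAs, so their spread includes differences between shRNAs, and the tests treat them as replicates of 1 condition. Whether the AE numbers mark different shRNA sequences or replicates is not said further. For control and AE libraries the labels do not say whether they are separate cultures, so their spread may be technical. The p-values reflect the spread of these 9 libraries. No library of untransduced cells was analysed here.

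The 9 genes do unlike work in the cell. DYNLRB1 is a light chain of cytoplasmic dynein, the motor that carries cargo along microtubules towards the cell centre, and TMED4 belongs to the p24 family of membrane proteins that cycle between the endoplasmic reticulum and the Golgi. ACBD5 tethers peroxisomes to the endoplasmic reticulum, NUDT19 is a peroxisomal hydrolase of coenzyme A, and LMLN is a metallopeptidase of the leishmanolysin type. GID8 is a subunit of the CTLH ubiquitin ligase, KLHDC3 is a substrate receptor of CUL2 ubiquitin ligases that reads protein ends, and DDA1 is a small subunit of CUL4 ubiquitin ligases. ABCA3 pumps lipids into lysosome-related organelles.

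Library totals ran from 20103275 to 28039518 counts. Levels below are CPM, the count of a gene as a share of the library total after TMM scaling, at the usual CPM scale, and a gene is called at a Benjamini-Hochberg adjusted p below 0.05 in edgeR's quasi-likelihood test over all 14741 genes. RUNX1T1 fell with AE knockdown to 52.6%, 63.0% and 40.5% of the control mean (log2 fold change -0.94, SE 0.18, adjusted p = 0.00778). LYL1 lay at 49.5%, 60.5% and 27.0% of the control mean with shRNAs 538, 540 and 542 (log2 fold change -1.13, SE 0.26) and was not called (adjusted p = 0.527). In the AE knockdown libraries LYL1 lay at 161%, 123% and 106% of the control mean (log2 fold change 0.38, adjusted p = 0.308). RUNX1T1 lay at 84.6%, 92.8% and 121% with LYL1 shRNAs 538, 540 and 542 (log2 fold change -0.01). The biological coefficient of variation was smallest in the 3 control libraries (7.55%) and was 31.4% for the AE and 20.9% for the LYL1 knockdown. The marker values that follow are an exception, being CPM of the full library total without TMM scaling. Of 7 blast markers 7 were above 1 CPM in each group, among them MPO and KIT. Their sum ran from 19092 to 22344 CPM in control, 18801 to 34733 CPM in AE and 13231 to 18006 CPM in LYL1 knockdown libraries. MPO made up most of this sum (control mean 19528 CPM), so the sum does not describe the other blast markers. The 4 T cell markers summed to between 4.06 and 5.999 CPM in control, 0.713 and 1.24 CPM in AE and 2.13 and 5.32 CPM in LYL1 knockdown libraries, with CD3G at 0 in every library. The part of these differences in the results was not tested. The 4 markers each of erythroid cells and of fibroblasts summed to at most 0.176 CPM in any library, and 4 epithelial markers to at most 1.22 CPM. The 4 B cell markers summed to between 4.89 and 18.7 CPM, from CD79A and PAX5, with MS4A1 at 0 in every library.

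RefSeq promoters matched 6 of the 9 genes by symbol (DYNLRB1, LMLN, NUDT19, ACBD5, KLHDC3 and ABCA3). The 250 bases before the annotated start are shown for the genes with the largest differences in both knockdowns, for KLHDC3, which holds the most E-boxes, and for ABCA3, which went the other way. Capitals mark CANNTG, the E-box bound by basic helix-loop-helix proteins such as LYL1 with its E-protein partner, and CCGGAAG, a motif of ETS factors, searched on both strands. The positions are GRCh38.p14: DYNLRB1 at chr20:34515352-34515601 (plus strand), LMLN at chr3:197959967-197960216 (plus strand), KLHDC3 at chr6:43013999-43014248 (plus strand) and ABCA3 at chr16:2340729-2340978 (minus strand).
DYNLRB1: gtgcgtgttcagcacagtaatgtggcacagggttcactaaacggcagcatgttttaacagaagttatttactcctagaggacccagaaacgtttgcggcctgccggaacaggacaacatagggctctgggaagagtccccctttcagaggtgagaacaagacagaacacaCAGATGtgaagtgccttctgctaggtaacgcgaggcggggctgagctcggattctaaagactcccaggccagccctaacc
LMLN: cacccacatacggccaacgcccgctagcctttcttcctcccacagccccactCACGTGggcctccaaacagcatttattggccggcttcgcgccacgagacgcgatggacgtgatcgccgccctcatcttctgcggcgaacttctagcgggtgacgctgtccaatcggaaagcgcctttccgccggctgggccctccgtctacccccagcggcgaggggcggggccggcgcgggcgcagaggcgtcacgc
KLHDC3: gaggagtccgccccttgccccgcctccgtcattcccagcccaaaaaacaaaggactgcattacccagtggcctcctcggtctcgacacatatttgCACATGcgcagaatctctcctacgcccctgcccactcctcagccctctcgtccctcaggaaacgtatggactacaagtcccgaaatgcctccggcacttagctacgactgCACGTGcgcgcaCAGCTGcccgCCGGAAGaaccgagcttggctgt
ABCA3: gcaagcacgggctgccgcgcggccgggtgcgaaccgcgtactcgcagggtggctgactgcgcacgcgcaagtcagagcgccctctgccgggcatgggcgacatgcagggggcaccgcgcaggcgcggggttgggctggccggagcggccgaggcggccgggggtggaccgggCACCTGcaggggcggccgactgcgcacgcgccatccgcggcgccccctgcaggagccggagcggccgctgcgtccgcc

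All 6 matched windows held at least 1 CANNTG, against 53.3% of the 9830 promoters of tested genes and 62.2% of all 27305 promoters in windows of the same length. KLHDC3 held 3, NUDT19 held 2 and each of the others held 1. These counts take all forms of CANNTG together. TGTGGT, the core of the RUNX motif, was in 0 of 6 windows and in 7.8% of tested promoters, and CCGGAAG was in 1 of 6 (KLHDC3) and in 16.5%. The windows differed in base composition, from 52.8% G and C with 9 CpG in DYNLRB1 to 79.2% with 38 CpG in ABCA3, around medians of 64.8% and 21 over tested promoters. These letters describe the windows and show no binding.

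DYNLRB1, the dynein light chain, had the lowest counts and the largest fold of the 9 genes. Control libraries held 54, 78 and 39 of its reads, AE knockdown libraries 326, 242 and 280, and those of LYL1 shRNAs 538, 540 and 542 held 229, 203 and 175. Scaled, these are 2.19, 2.94 and 1.64 CPM for control, 11.7, 8.53 and 13.5 CPM for AE and 8.79, 7.86 and 8.73 CPM for LYL1 shRNAs. All 6 knockdown libraries lay above all 3 controls, and AE and LYL1 libraries overlapped. DYNLRB1 rose 4.93-fold with AE knockdown (log2 fold change 2.30, SE 0.26, adjusted p = 0.00103). In LYL1 knockdown, on which it was chosen, its log2 fold change was 1.90 (SE 0.26).

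LMLN, the leishmanolysin-type peptidase, had the next largest fold. It lay at 3.97, 3.81 and 4.28 CPM in control libraries, at 11.4, 13.5 and 9.81 CPM in AE libraries and at 8.91, 11.0 and 10.5 CPM with LYL1 shRNAs 538, 540 and 542. It rose 2.89-fold with AE knockdown (log2 fold change 1.53, SE 0.19, adjusted p = 0.00178), and its log2 fold change with LYL1 knockdown was 1.33 (SE 0.19). The 3 controls lay close together and below every knockdown library, and the AE and LYL1 libraries overlapped.

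TMED4, the p24 protein, was at 52.5, 51.2 and 47.8 CPM in the controls. It reached 104, 114 and 144 CPM with AE knockdown and 93.4, 108 and 114 CPM with LYL1 shRNAs 538, 540 and 542. It rose 2.39-fold with AE knockdown (log2 fold change 1.26, SE 0.15, adjusted p = 0.00144), with its highest value in AE replicate 3, and its log2 fold change with LYL1 knockdown was 1.06 (SE 0.15). Control counts of TMED4 were between 1139 and 1358, so its level in the controls rests on many reads.

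The peroxisomal genes NUDT19 and ACBD5 were higher in both knockdowns by less than 2-fold. NUDT19, the coenzyme A hydrolase, was at 19.7, 21.9 and 19.7 CPM in control libraries, 41.7, 30.6 and 35.2 CPM in AE and 41.9, 36.0 and 36.0 CPM in LYL1 knockdown libraries. It rose 1.75-fold with AE knockdown (log2 fold change 0.81, SE 0.15, adjusted p = 0.00703), with a log2 fold change of 0.89 (SE 0.15) in LYL1 knockdown. NUDT19 was the only 1 of these 6 genes whose fold was larger with LYL1 than with AE knockdown, by less than the standard error of either. ACBD5, the peroxisome tether, was at 43.3, 43.4 and 51.1 CPM in control libraries, 66.7, 73.9 and 79.9 CPM in AE and 71.9, 70.8 and 71.7 CPM in LYL1 knockdown libraries. It rose 1.60-fold with AE knockdown (log2 fold change 0.68, SE 0.13, adjusted p = 0.00707), against a log2 fold change of 0.64 (SE 0.13) with LYL1 knockdown. Its LYL1 knockdown libraries differed by a coefficient of variation of 0.767%, the smallest of the 9 genes in any group.

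KLHDC3, the CUL2 receptor, completed the 6 genes that were higher in both. It was at 132, 125 and 117 CPM in control libraries, 177, 201 and 203 CPM in AE and 182, 199 and 173 CPM in LYL1 knockdown libraries. It rose 1.56-fold with AE knockdown (log2 fold change 0.64, SE 0.13, adjusted p = 0.00814), with a log2 fold change of 0.57 (SE 0.13) in LYL1 knockdown. All 6 knockdown libraries lay above all 3 controls. MEA1, which overlaps KLHDC3 on the opposite strand, had 1332, 1362 and 1486 counts in the controls and between 1232 and 1591 in the knockdown libraries. The strand setting of the counting is not given in the sources used here, so how reads in the overlap were counted is not known.

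The ubiquitin ligase subunits GID8 and DDA1 lay on opposite sides of the control level with LYL1 knockdown, and neither was called with AE knockdown. GID8, of the CTLH ligase, was at 83.5, 82.8 and 89.4 CPM in control libraries, 82.8, 88.0 and 84.4 CPM in AE and 50.9, 55.9 and 61.3 CPM in LYL1 knockdown libraries. Its log2 fold change was -0.61 (SE 0.12) with LYL1 knockdown and 0.00 with AE knockdown, where the 95% confidence interval ran from -0.27 to 0.26 (adjusted p = 0.99). All 3 LYL1 libraries lay below the other 6. DDA1, of the CUL4 ligases, was at 39.6, 39.99 and 33.0 CPM in control libraries, 45.2, 44.3 and 38.1 CPM in AE and 67.1, 53.6 and 72.7 CPM in LYL1 knockdown libraries. Its log2 fold change was 0.78 (SE 0.15) with LYL1 knockdown and 0.18 with AE knockdown (95% confidence interval -0.16 to 0.52, adjusted p = 0.415). All 3 LYL1 libraries lay above the other 6. Both genes were chosen on LYL1 knockdown against control, and the share of all tested genes with such a separation was not counted. Nothing is read from it. DDA1 overlaps ABHD8 and ANO8 on the opposite strand. ABHD8 had 94, 107 and 89 counts in control libraries, 228, 227 and 323 in AE and 99, 73 and 43 in LYL1 knockdown libraries. ANO8 had 204 to 230, 87 to 204 and 187 to 258 counts in the same order. ABHD8 was thus highest in the AE libraries and DDA1 in the LYL1 libraries.

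ABCA3, the lipid pump, was lower with LYL1 knockdown. It was at 16.8, 17.4 and 16.9 CPM in control libraries, 15.1, 16.6 and 12.8 CPM in AE and 9.40, 9.02 and 11.5 CPM in LYL1 knockdown libraries. Its log2 fold change was -0.77 (SE 0.17) with LYL1 knockdown and -0.20 with AE knockdown (95% confidence interval -0.55 to 0.16, adjusted p = 0.404). The 3 AE libraries lay below the 3 controls and above the 3 LYL1 libraries. ABCA3 too was chosen on LYL1 knockdown against control, and the share of all tested genes in this order was not counted.

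**Figure D1:**
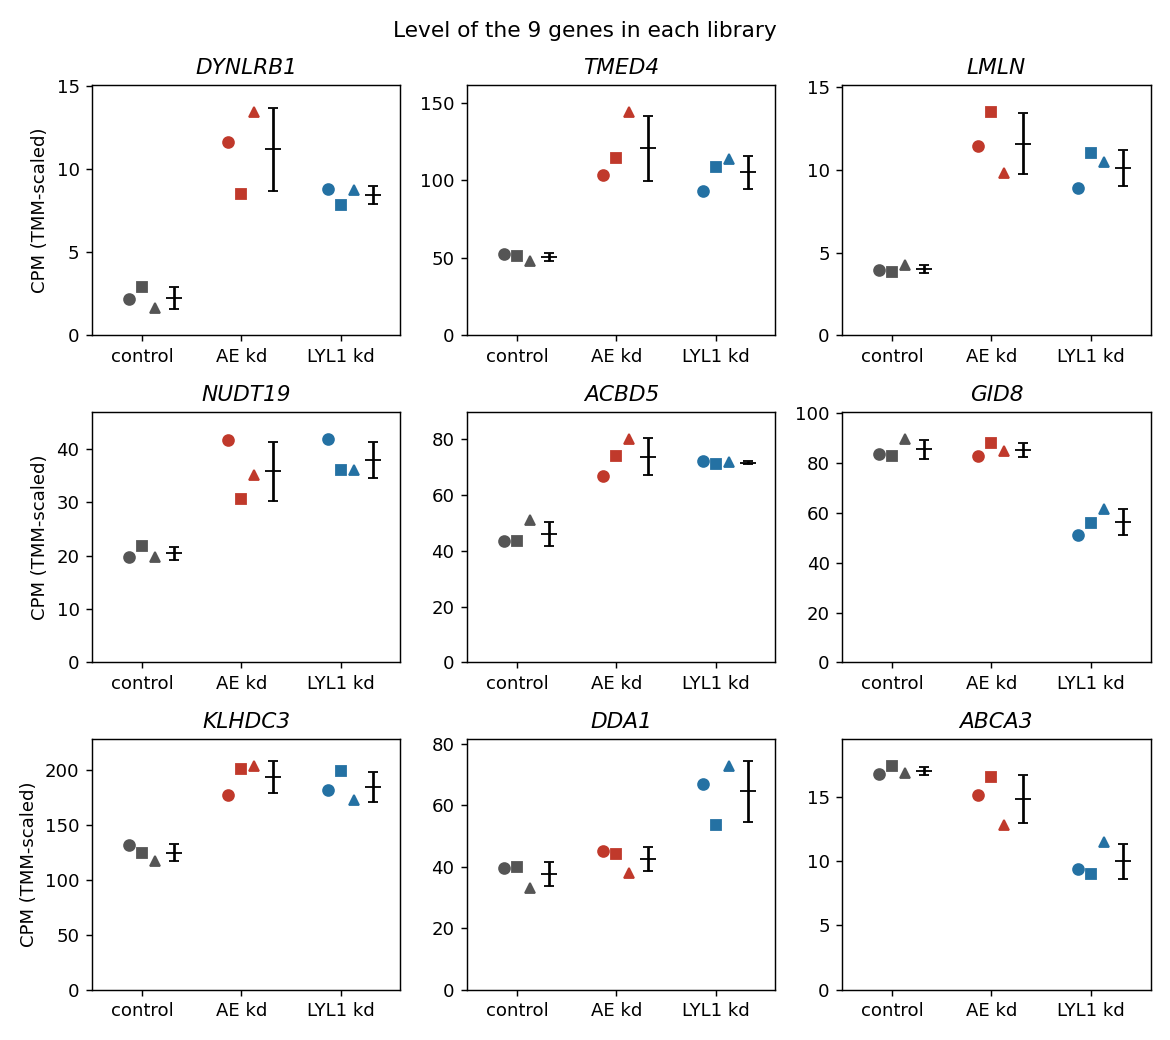
Level of each of the 9 genes in CPM (linear axes from 0) in the 3 control, 3 AE knockdown (kd) and 3 LYL1 knockdown libraries; symbols are libraries (circle, square and triangle for control and AE 1, 2 and 3 and for LYL1 shRNAs 538, 540 and 542) and bars are mean ± SD (n = 3). DYNLRB1, TMED4, LMLN, NUDT19, ACBD5 and KLHDC3 lie above the controls in all 6 knockdown libraries, while GID8, DDA1 and ABCA3 stand apart in the LYL1 libraries. All 9 genes were chosen on LYL1 knockdown against control.

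AE knockdown against control asks whether the genes chosen on LYL1 knockdown also differ when the fusion is lowered. Of the 9 genes 6 were called higher and none lower, where 11.4% of all tested genes were called higher and 10.4% lower. The median log2 fold change of the 9 was 0.68, against 0.05 over all tested genes. This comparison uses the same 3 control libraries as the one that chose the genes, so its result is not independent of the choice. Among the log2 fold changes of all tested genes DYNLRB1 stood at percentile 98.8, LMLN at 97.0, TMED4 at 95.1, and NUDT19, ACBD5 and KLHDC3 between 82.7 and 87.8. These 6 genes were called in every one of the 9 fits that left out 1 library, with adjusted p up to 0.0473.

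LYL1 knockdown against control is the comparison that chose the genes, and its values are a description. In edgeR's test 1 gene was called higher and 1 lower (0.00678% of tested genes each), HSD17B10 and TRH, and none of the 9 was called. At an unadjusted p below 0.05 all 9 passed, as did 4.82% of all tested genes, and DESeq2 called 7 of the 9 higher and 2 lower, where it called 0.211% of genes higher and 0.0758% lower. By p-value DYNLRB1, TMED4 and LMLN ranked 3, 5 and 6, NUDT19 9, and DDA1, GID8, ACBD5, ABCA3 and KLHDC3 between 15 and 26 of 14741. The first 26 ranks held 17 other genes as well, among them CXCL8 (rank 4), RN7SL3 (rank 7) and CD33 (rank 8), and ARC (rank 27, log2 fold change 1.63) came just after KLHDC3. The first genes to miss the threshold were DYNLRB1, CXCL8, TMED4 and LMLN, all at an adjusted p of 0.0587. The median log2 fold change of the 9 was 0.78, against 0.01 over all tested genes.

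**Figure D2:**
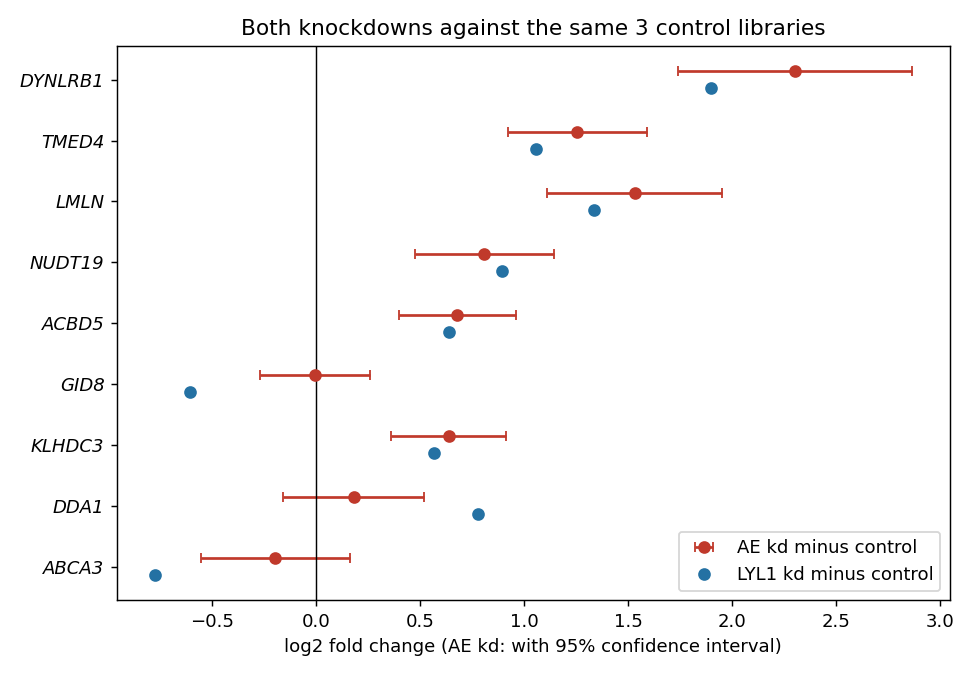
Log2 fold change of each gene in AE knockdown (red, with 95% confidence interval) and LYL1 knockdown (blue, no interval because the genes were chosen on it) against the same 3 control libraries. The 2 values lie close together for DYNLRB1, TMED4, LMLN, NUDT19, ACBD5 and KLHDC3, and GID8, DDA1 and ABCA3 lie near 0 with AE knockdown only.

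AE knockdown was set against LYL1 knockdown directly to ask whether the genes are raised alike, a comparison in which the level of the controls takes no part in the difference. It shares the LYL1 libraries with the choice of the genes. None of the 6 genes higher in both knockdowns was called. Their intervals come from the fit of all 9 libraries. The spread of the controls, whose biological coefficient of variation was the smallest (7.55%), therefore enters the width of the intervals and the calls. The log2 difference, AE minus LYL1, was 0.40 for DYNLRB1 (95% confidence interval -0.10 to 0.91), 0.20 for TMED4 (-0.13 to 0.52) and 0.20 for LMLN (-0.20 to 0.60). It was -0.08 for NUDT19 (-0.41 to 0.24), 0.04 for ACBD5 (-0.24 to 0.32) and 0.07 for KLHDC3 (-0.20 to 0.35). For ACBD5 and KLHDC3 the interval reaches 0.32 and 0.35 at most, while for DYNLRB1 it holds differences of up to 0.91.

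The other 3 genes were called in this comparison. They were chosen on their values in the same LYL1 libraries, so the calls are not independent of the choice. GID8 was higher with AE than with LYL1 knockdown (log2 difference 0.60, SE 0.12, adjusted p = 0.00887), as was ABCA3 (0.58, SE 0.17, adjusted p = 0.0328), and DDA1 was lower (-0.60, SE 0.15, adjusted p = 0.0218). These 3 of 9 stand beside 20.4% of all tested genes called in this comparison, 10.7% higher with AE and 9.70% lower. ABCA3 was not called when control replicate 1, 2 or 3 was left out (adjusted p = 0.0637, 0.0653 and 0.0579), without AE replicate 1 or 2 (0.066 and 0.0603) and without shRNA 538 or 540 (0.0934 and 0.0976). ABCA3 was not called with library size only or with no filter on low counts either (adjusted p = 0.0581 and 0.0746). DDA1 lost its call without shRNA 538 or 542 (adjusted p = 0.0618 and 0.0715), and GID8 was called in all 9 fits that left out 1 library. In a fit of only the 6 knockdown libraries none of the 3 was called (edgeR adjusted p = 0.0526, 0.0713 and 0.122 for GID8, DDA1 and ABCA3). Without the controls in the estimate of spread, that fit called 470 of 14349 tested genes higher with AE and 471 lower.

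**Figure D3:**
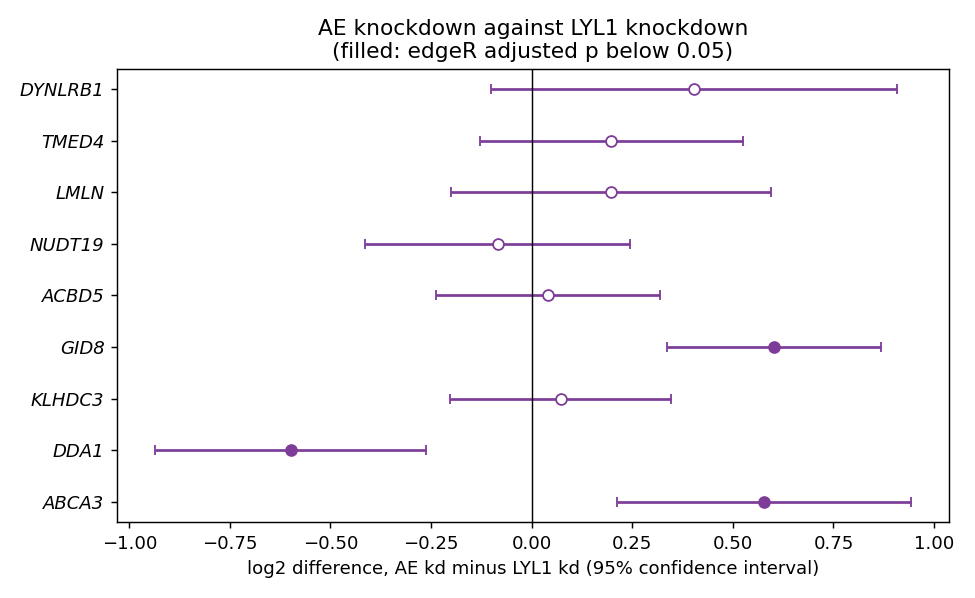
Log2 difference between AE and LYL1 knockdown for each gene (x axis, AE minus LYL1) with its 95% confidence interval; filled points passed an edgeR adjusted p of 0.05. GID8 and ABCA3 lie above 0 and DDA1 below, and the intervals of the other 6 genes cross 0.

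The control values were then read on their own, because 1 set of 3 control libraries stands under both comparisons. In counts they were low for DYNLRB1 (39 to 78) and LMLN (98 to 102) only, and the other 7 genes had between 402 and 3306 counts in every control library. For DYNLRB1 the SD between controls was 0.654 CPM, where counting error alone gives 0.298 CPM, and its coefficient of variation of 29% was the widest of the 9 genes. For LMLN the SD was 0.243 CPM against 0.401 CPM from counting. The other 7 had coefficients of variation between 1.95% (ABCA3) and 10.4% (DDA1) in the controls. For ABCA3 the SD of 0.332 CPM was below the 0.826 CPM that counting alone gives, so its controls lay closer together than counting error would place them.

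The distance between groups was larger than these spreads for the 6 genes. The lowest of the 6 knockdown libraries lay above the highest control by 2.67 times for DYNLRB1, 2.08 for LMLN, 1.78 for TMED4, 1.40 for NUDT19 and 1.31 each for ACBD5 and KLHDC3. In ABCA3 the 3 controls lay above all 6 knockdown libraries, as in 3.47% of all tested genes. Of all tested genes 2.98% had the 3 controls below all 6 knockdown libraries, 0.265% by at least 1.3 times and 0.136% by at least 1.5 times. Since the genes were chosen on part of these values, nothing is read from that contrast. Without control replicate 3, which held the lowest DYNLRB1 value, the log2 fold change of DYNLRB1 was 2.12 with AE and 1.72 with LYL1 knockdown, and without control replicate 2, which held the highest, it was 2.54 and 2.14. Whether the 3 control libraries are low for these genes, or the 6 knockdown libraries high, cannot be told apart, because every comparison against control uses the same 3 libraries and the control shRNA is the only reference.

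The levels can be set beside the depth of the LYL1 knockdown. LYL1 itself was lowest with shRNA 542 (43.9 CPM) and highest with shRNA 540 (98.4 CPM). DYNLRB1 was at 8.73 and 7.86 CPM in these libraries, ACBD5 at 71.7 and 70.8 CPM, LMLN at 10.5 and 11.0 CPM and KLHDC3 at 173 and 199 CPM. TMED4 was at 114 and 108 CPM in the same order, NUDT19 at 35.97 and 36.04 CPM and DDA1 at 72.7 and 53.6 CPM. GID8 was at 61.3 and 55.9 CPM and ABCA3 at 11.5 and 9.02 CPM, so these 2 genes were nearer the control level with shRNA 542. With 3 libraries no test of such an order was made.

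Among 10060 other genes whose log2 CPM averaged 2 or more, the 6 whose profile over the 9 libraries was most like the mean standardised profile of the 9 genes were HSD17B10, PDZD11, CD33, PHYH, MAF1 and MAP3K10, with Pearson correlations of 0.988 down to 0.943. These correlations describe 9 libraries that fall into 3 groups and carry no test, and since the genes were picked for this profile, their levels and folds are a description as well. HSD17B10, a mitochondrial dehydrogenase and subunit of RNase P, stood at 13.4 ± 1.17 CPM in the controls, 89.6 ± 6.11 CPM with AE and 57.3 ± 4.32 CPM with LYL1 knockdown (SD, n = 3). Between the knockdowns its log2 difference, AE minus LYL1, was 0.65. CD33, a surface receptor of myeloid cells, was at 31.2 ± 3.05, 126 ± 44.4 and 78.4 ± 3.52 CPM in the same order. PHYH, which starts the breakdown of phytanic acid in peroxisomes, was at 30.5 ± 1.53, 45.5 ± 3.74 and 38.2 ± 2.83 CPM. MAF1, a repressor of RNA polymerase III, was at 122 ± 9.61, 176 ± 11.1 and 155 ± 6.11 CPM. PDZD11 and the kinase gene MAP3K10 had log2 fold changes of 0.68 and 0.63 with AE knockdown. Within the 9 genes the correlation with their own mean profile ran from 0.881 to 0.970 for the 6 genes higher in both knockdowns and was 0.476 for DDA1, -0.25 for GID8 and -0.45 for ABCA3.

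**Figure D4:**
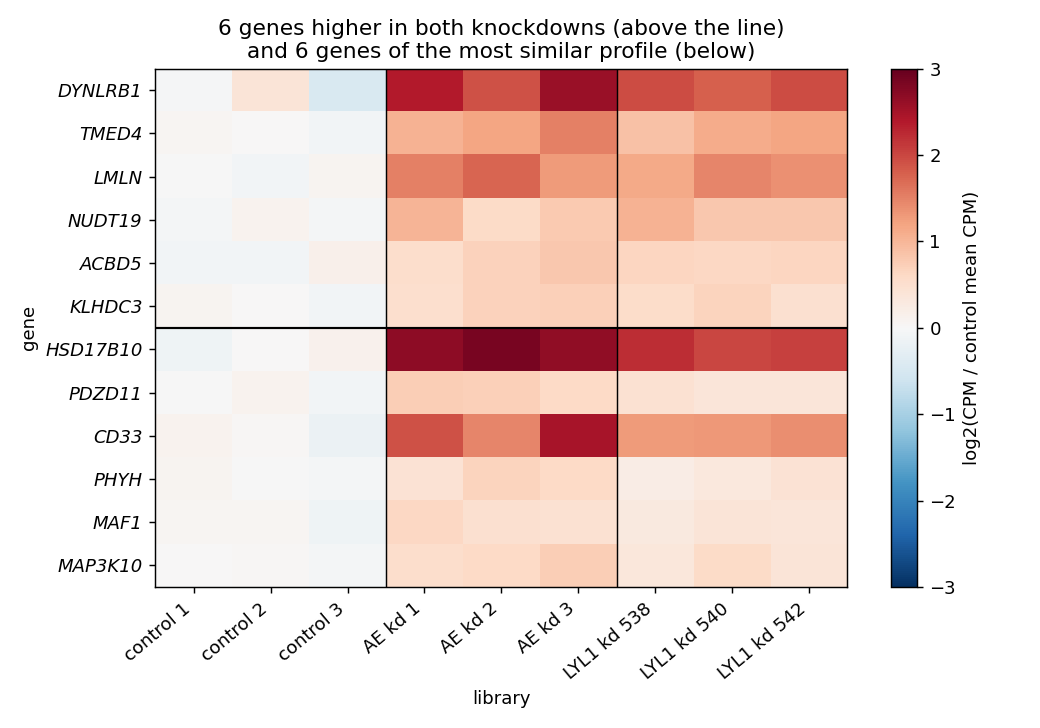
Log2 ratio of CPM to the control mean (colour) in each library (columns) for the 6 genes higher in both knockdowns (above the line) and the 6 other genes of most similar profile (below). HSD17B10 shows the strongest colour in all 6 knockdown libraries. PHYH, MAF1, MAP3K10 and PDZD11 are on average paler with LYL1 than with AE knockdown, though MAP3K10 with shRNA 540 lies above AE replicate 1.

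Partners of the genes in their complexes, compartments or families were read from 6 lists, without the 9 genes themselves. None of the lists was made for LMLN. Each list's count with AE knockdown stands beside the 11.4% of all tested genes that were called higher and the 10.4% called lower, and no list was tested as a set. Of 25 other dynein and dynactin genes tested, 1 was called higher and 3 lower with AE knockdown (median log2 fold change -0.09). DCTN3, a dynactin subunit, rose from 28.8 ± 2.43 to 49.3 ± 12.0 CPM and DCTN1, its largest subunit, fell from 207 ± 0.728 to 127 ± 32.3 CPM, while the cargo adaptor BICD1 and the actin capping subunit CAPZB fell (log2 fold changes -1.04 and -0.53). Of 34 other p24 and coat genes of early secretion, 3 were higher and 3 lower (median 0.04). Among them the cargo receptor LMAN2 and the coat subunit COPB1 rose (log2 fold changes 0.54 and 0.46), and the coat subunit SEC24B and the retrieval receptor KDELR2 fell (-0.45 and -0.49).

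Of the 11 other CTLH ligase genes 3 were higher and 1 lower with AE knockdown (median -0.18). RMND5B, a RING subunit, rose from 2.23 ± 0.441 to 14.6 ± 8.38 CPM, YPEL5 from 22.3 ± 0.775 to 89.0 ± 62.5 CPM and WDR26 from 140 ± 2.69 to 246 ± 60.9 CPM, and RANBP9 fell (log2 fold change -0.42). GID8 was not called in this comparison. Of 38 other CUL2 and CUL4 ligase genes 5 were higher and 2 lower (median 0.01), with the receptors COP1 and DCAF12 higher (log2 fold changes 0.64 and 0.61) and DCAF16 and DCAF1 lower (-0.66 and -0.67).

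Of 45 other peroxisome genes 8 were higher and 3 lower with AE knockdown (median 0.17). PRDX5, a peroxidase, rose from 184 ± 8.24 to 283 ± 25.3 CPM. GNPAT, the first enzyme of ether lipid synthesis, rose from 70.2 ± 2.07 to 112 ± 1.11 CPM, and PEX16, of peroxisome assembly, from 9.51 ± 0.631 to 16.9 ± 2.37 CPM. VAPB, the endoplasmic reticulum partner that ACBD5 binds, fell from 94.1 ± 5.24 to 64.3 ± 3.13 CPM. Of 3 other ABCA transporters tested ABCA7 was called higher (log2 fold change 2.10), from 8.03 ± 0.781 to 34.7 ± 37.2 CPM, so the spread between its AE libraries was larger than their mean. None of the 156 other genes of these 6 lists was called with LYL1 knockdown in edgeR's test, 7 of them (6 higher and 1 lower) had an unadjusted p below 0.05 where 4.82% of all tested genes did, and the medians of the 6 lists lay between -0.40 and 0.11.

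In transcript length and base composition the 9 genes were spread over the range of tested genes. The longest coding transcript in GENCODE ran from 1464 bases (DYNLRB1) to 7043 bases (LMLN), around a median of 3403 for 11430 tested genes that had one. Its G and C content ran from 41.9% (ACBD5) to 60.4% (ABCA3), around a median of 48.7%.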

How the data were processed

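The deposited files hold raw read counts per gene symbol, 1 file per library, with no normalisation by the authors. Per the submitters' processing notes, the tools were featureCounts 2.0.1, HISAT2 2.2.0, fastp 0.20.1, DESeq2 1.26.0 and SAMtools 1.7 on build hg19, whose roles and order are not stated. The annotation, the strand setting and the treatment of reads mapping to several places are not given in the sources used here. In 6 files, those of the control and AE groups, 5 gene names carried a decimal suffix, which was removed.

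Counts were filtered with filterByExpr, scaled with TMM and fitted with edgeR 4.0.16 (R 4.3.3, limma 3.58.1) as 1 group-means model of 9 libraries, with robust quasi-likelihood tests and Benjamini-Hochberg adjustment. The standard error is the log2 fold change divided by the square root of F. Alternatives were other scalings and filters, DESeq2 1.42.0, limma-voom, the legacy test, fits of 6 libraries, leaving out each library and a replicate block. Promoters are RefSeq (GRCh38.p14) and overlaps and transcripts GENCODE on GRCh38, matched by symbol.

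The 9 genes, the 6 gene lists and the tests were chosen with earlier results of these data known. Other genes are named as knockdown targets, as up to 4 called genes per list with the smallest adjusted p, as the 6 genes most like the mean profile, or as neighbours in rank. MPO, KIT, CD3G, CD79A, PAX5, MS4A1, MEA1, ABHD8, ANO8, TRH and ARC were named after their values were seen. No 2 libraries of a group agreed within sampling noise.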

Additional observations from a re-analysis of the deposited data

Results flagged for a closer look

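Of the 9 genes, 3 differed between AE and LYL1 knockdown by a test of the difference itself, where 20.4% of all tested genes were called. GID8 was higher with AE knockdown (log2 difference 0.60, edgeR adjusted p = 0.00887), ABCA3 was higher (0.58, adjusted p = 0.0328) and DDA1 was lower (-0.60, adjusted p = 0.0218). These genes were chosen on their values in the LYL1 libraries, which this comparison uses as well. In a fit of only the 6 knockdown libraries none of the 3 was called (edgeR adjusted p = 0.0526, 0.0713 and 0.122 for GID8, DDA1 and ABCA3). That fit, which leaves the controls out of the estimate of spread, called 470 of 14349 tested genes higher with AE and 471 lower. When 1 library was left out, GID8 was called in 9 of 9 fits, DDA1 in 7 and ABCA3 in 2. GID8 lay at 50.9 to 61.3 CPM in the 3 LYL1 libraries and at 82.8 to 89.4 CPM in the other 6.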

How the results depend on the processing

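The count of 6 genes called higher with AE knockdown held in all alternatives run, including the replicate block, which also gave 6. Deviations of control and AE libraries of the same number correlated at 0.139, -0.05 and 0.04 over 5000 genes. For unlike numbers the correlations ran from -0.152 to 0.115. These values do not settle whether the shared numbers pair the libraries. The block, fitted on the 6 control and AE libraries, gave 744 genes higher and 885 lower over all genes. Those 6 libraries without a block gave 1312 and 1267, and all 9 libraries 1684 and 1530. Leaving out control replicate 1, 2 or 3 gave 494, 423 and 445 genes higher with AE knockdown and 602, 531 and 605 lower. The count called higher with LYL1 knockdown was 0 in the reported fit, 2 with library size only, 3 with no low-count filter, 4 with only the 6 libraries compared, 6 with limma-voom and a spread per group, and 7 with DESeq2. Over all tested genes the same fits called 1 and 4 of 14741, 7 of 29826, 11 of 14082, 20 of 14741 and 25 of 11866 higher. The count of the 9 genes ran from 0 to 3 when 1 library was left out, with 2 without AE replicate 2 and 3 without AE replicate 3. Over all genes those 2 fits called 5 of 15033 and 9 of 15049 higher. The 9 genes were chosen on this comparison, so their counts in it are a description. The count that differed between the knockdowns was 3, but 2 with library size only and with no low-count filter, where ABCA3 was not called, 1 with limma-voom and a spread per group and 0 with only the 6 libraries compared, and it ran from 1 to 3 when 1 library was left out, with 1 without shRNA 538. The reported fit takes its spread from all 9 libraries, and the fit of only the 6 knockdown libraries leaves the controls out. The cause was not tested. Signs turned only for differences near 0. ACBD5 between the knockdowns was -0.0079 with library size only and ran from -0.0314 to 0.096 when 1 library was left out. NUDT19 between the knockdowns ran from -0.2182 to 0.0166. GID8 with AE knockdown was 0.0042 with 50 counts in 3 libraries and ran from -0.0297 to 0.0293. The median of the 9 genes ran from 0.60 to 0.76 with AE and from 0.69 to 0.90 with LYL1 knockdown when 1 library was left out. Between the knockdowns it was 0.20 in the reported fit, 0.18 with RLE scaling and with DESeq2 and 0.15 with library size only, and it ran from 0.0439 (without AE replicate 3) to 0.22 when 1 library was left out, with 0.07 without AE replicate 2 and 0.11 without shRNA 538. Depth limits DYNLRB1 and LMLN, at 39 to 102 counts in the controls.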
